A study of Mus musculus with 4 samples.

Results

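Organic anion transporting polypeptides (OATPs, genes Slco) and multidrug and toxin extrusion proteins (MATEs, genes Slc47) were followed in juvenile mouse testes, all male, taken at postnatal day 9. The genes were 8 OATPs and both MATEs, 10 of 17277 named genes, and they were measured by 11 of the 25631 transcripts on the array. They were chosen by symbol from these families, with the difference between Dmrt1 KO and control testes already in view, so their differences are given as a description with no test. Slco3a1 had a pair of transcripts and each of the other 9 genes had 1. The 3 Dmrt1 KO arrays came from Cre-positive testis tissue and the 1 control array from Cre-negative testis tissue. All 4 samples carry the label DHH-cre, the name of the driver line. Cre and the Dmrt1 deletion thus went together, and their effects cannot be told apart here. The Dmrt1 alleles of the control, the pooling of testes and the number of animals behind each array are not given in the sources used here, so the spread between KO arrays may be technical.

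OATPs sit in the plasma membrane and move large amphipathic anions, such as bile salts, conjugated steroids, thyroid hormones, prostaglandins and many drugs, mostly into cells. MATEs exchange protons for organic cations and carry drugs and toxins out of cells, best known from the kidney tubule and the liver. In the testis, transporters of both kinds are studied because Sertoli cells, the somatic cells that surround the germ cells, form a barrier between blood and the tubule. Desert hedgehog is made by Sertoli cells in the fetal and postnatal testis, and its Cre driver recombines there. Dmrt1 is a DM domain transcription factor made in both Sertoli cells and germ cells.

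Each value is an intensity from a one-colour NimbleGen array, normalised by the authors with RMA, and log2 intensities were compared. Intensities of different transcripts come from different probes, so differences are taken between arrays. Ranks among transcripts and sums over marker genes are given as description only, and the brightest markers weigh most in a sum. The lowest intensity on an array was 23.9 to 25.2, the 5th percentile 53.8 to 57.2 and the median 1005 to 1011, and no measure of background was used here. With 4 arrays the precision is limited by their number. Dmrt1 itself had log2 intensities of 13.23, 13.38 and 13.66 on the KO arrays, against 14.16 in the control, and its difference of -0.73 ± 0.27 (SE) missed the threshold of limma's test (adjusted p = 0.586). Where its probes lie relative to the deleted part is not known here. Testis markers were bright on every array, with Amh, a Sertoli cell hormone, at 5853 to 6201 on the KO arrays and 6211 in the control. Ddx4, a germ cell helicase, was at 24558 to 26186 on the KO arrays and 21507 in the control.

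Slco1a5 and Slc47a2 were far lower in the Dmrt1 KO testes than in the control, and the other 9 transcripts differed by less than 1 on the log2 scale. All 3 KO arrays lay below the control for 6 of the 11 transcripts, against 24.1% of all transcripts, and above it for 2 of the 11, against 25.6%. At least a 2-fold lower level in each KO array was seen for 2 of the 11, against 0.753% of all transcripts. Since the genes were chosen with this contrast known, nothing is read from these shares. The median difference of the 11 was -0.24, and that of all transcripts was 0.0043. The median of the members was -0.093 with 50 added to every intensity and -0.16 over the 6 left without the dimmest 25% of transcripts. In bulk tissue, fewer cells of a type and less RNA per cell cannot be told apart.

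**Figure D1:**
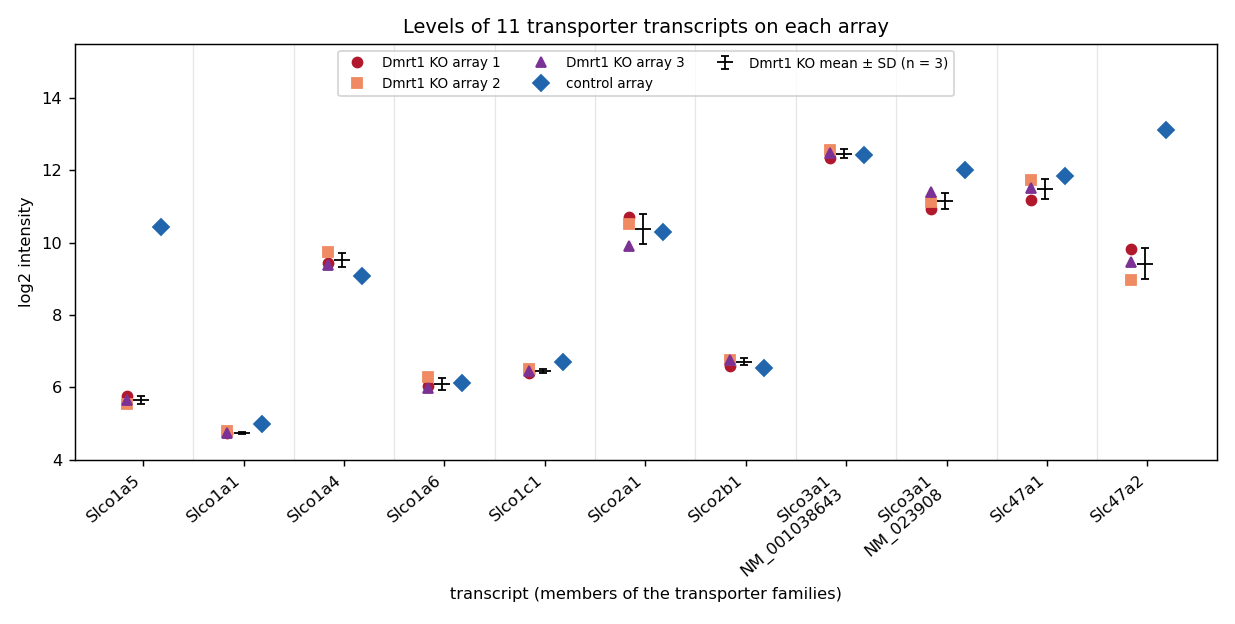
Log2 intensity (vertical axis) of the 11 transporter transcripts (horizontal axis), with a symbol for each of the 3 Dmrt1 KO arrays, their mean ± SD as a bar, and a diamond for the control array. Slco1a5 and Slc47a2 stand far below their control on all 3 KO arrays, at 5.54 to 5.76 and 8.97 to 9.84, and heights are not comparable between transcripts.

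Slco1a5 (NM_130861), an uptake carrier of bile salts and conjugated steroids known from gut and brain, had the largest difference of the 11 transcripts. Its intensity was 54.1, 46.5 and 50.2 on the KO arrays, against 1384 in the control. The log2 levels were 5.76, 5.54 and 5.65 on the KO arrays and 10.43 in the control. The KO arrays lay within 0.22 of each other and 4.68 or more below the control. The mean difference was -4.79 (SD over the KO arrays 0.11, n = 3), a 27.6-fold lower intensity, and it was the third lowest of the 25631 transcripts. On the KO arrays only 3.10% to 4.90% of all transcripts were dimmer, against 55.7% in the control. Whether a level this dim lies above background is not known here, so the fold is uncertain. With 50 added to every intensity before the logarithm, the difference was -3.84.

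The sequences before the annotated starts of Slco1a5 are shown beside that of Slco1a4. These genes of chromosome 6 are close relatives and stood on opposite sides of the control. The sequences shown are the 250 bases 5′ of each start in RefSeq's annotation of GRCm38.p6, read on the gene's strand. That assembly is later than the array's design. The outer start of Slco1a5 is preceded by chr6:142322982-142323231 and the inner one by chr6:142278875-142279124, and Slco1a4 by chr6:141856221-141856470, all on the minus strand. Which start the array's Slco1a5 transcript uses was not determined here. In the outer window the capitals mark the letters TATAAA. In the other windows they mark the bases that are identical between the inner Slco1a5 window and the Slco1a4 window in a local alignment.
Slco1a5 outer: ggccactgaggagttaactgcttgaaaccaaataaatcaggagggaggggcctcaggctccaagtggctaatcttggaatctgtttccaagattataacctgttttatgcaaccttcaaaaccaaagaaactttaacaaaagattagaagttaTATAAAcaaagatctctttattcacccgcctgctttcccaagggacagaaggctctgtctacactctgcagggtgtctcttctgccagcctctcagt
Slco1a5 inner: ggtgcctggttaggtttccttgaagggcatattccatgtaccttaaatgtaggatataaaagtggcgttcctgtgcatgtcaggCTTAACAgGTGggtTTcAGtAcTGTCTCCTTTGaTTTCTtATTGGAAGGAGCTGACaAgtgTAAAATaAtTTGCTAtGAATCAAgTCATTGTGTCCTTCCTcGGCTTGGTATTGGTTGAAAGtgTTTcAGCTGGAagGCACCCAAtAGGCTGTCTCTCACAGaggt
Slco1a4: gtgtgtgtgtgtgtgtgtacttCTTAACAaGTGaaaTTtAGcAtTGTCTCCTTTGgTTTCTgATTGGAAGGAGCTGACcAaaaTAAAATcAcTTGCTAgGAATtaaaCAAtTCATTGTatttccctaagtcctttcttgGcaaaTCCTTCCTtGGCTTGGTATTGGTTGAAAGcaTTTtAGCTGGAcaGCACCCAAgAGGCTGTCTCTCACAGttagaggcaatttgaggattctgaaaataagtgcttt

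The inner Slco1a5 window and the Slco1a4 window shared 138 identical bases over 191 aligned columns (72.3%). In the other 14 pairs among the 6 windows of Slco1 genes, the best local alignment spanned 8 to 19 columns. The inner Slco1a5 start thus lies behind sequence like that of Slco1a4, and the outer start does not show it within these bases.

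Slco1a4 (NM_030687), the OATP of brain capillaries and liver, was slightly higher in the KO testes. Its intensity was 691, 862 and 674 on the KO arrays, against 541 in the control. All 3 KO arrays lay above the control, the nearest by 0.32 on the log2 scale, which is less than the 0.35 between the KO arrays themselves. The mean difference was 0.45 (SD 0.20, n = 3), a 1.36-fold higher intensity. Slco1a5 and Slco1a4 thus stood on opposite sides of the control, at -4.79 and 0.45.

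The other members of the Slco1 cluster were dim on every array. Slco1a1 (NM_013797), the sex-dependent OATP of mouse liver and kidney, had intensities of 26.6, 27.4 and 26.4 on the KO arrays and 32.0 in the control, close to the lowest value of any transcript. Slco1a6 (NM_023718), an OATP known from kidney, had 65.2, 77.5 and 62.7 on the KO arrays and 69.7 in the control, so the control lay among the KO arrays. Slco1c1 (NM_021471), a thyroxine carrier of brain capillaries and choroid plexus, had 84.9, 90.3 and 86.8 on the KO arrays and 103 in the control. The log2 differences were -0.25 for Slco1a1, -0.03 for Slco1a6 and -0.24 for Slco1c1. Slco1a1 and Slco1c1 were below the control on all KO arrays, by 0.22 and 0.19 or more, at intensities where background is unknown. For Slco1a6 the difference turned to 0.03 without KO array 3.

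Slco1b2, the liver OATP that lies between Slco1c1 and Slco1a4 on chromosome 6 and is outside the chosen set, differed by 0.10 ± 0.27 (SE; limma, adjusted p = 0.999), and by -0.0019 without KO array 1. In the annotation the 6 measured Slco1 genes follow each other as Slco1c1, Slco1b2, Slco1a4, Slco1a1, Slco1a6 and Slco1a5. RIKEN, predicted and accession-like symbols were skipped when neighbours were picked. The nearest measured named genes kept before the Slco1 genes were Plekha5 at -0.03 ± 0.26, Aebp2 at -0.39 ± 0.32 and Pde3a, a phosphodiesterase, at -0.57 ± 0.28 (SE). Those kept after the Slco1 genes were Iapp, the amylin gene, at -0.06 ± 0.27, Pyroxd1 at -0.01 ± 0.25 and Recql, a DNA helicase, at -0.02 ± 0.27 (SE). None of these 6 passed limma's test, and the smallest adjusted p was 0.833, for Pde3a. The sign of Plekha5, Iapp, Pyroxd1 and Recql turned when 1 KO array or another was left out, and Aebp2 ranged from -0.60 to -0.22. Slco1a5 was the only gene kept in this stretch with a difference over 1. Iapp and Slco1a6, the genes kept on either side of it, were at -0.06 and -0.03.

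**Figure D2:**
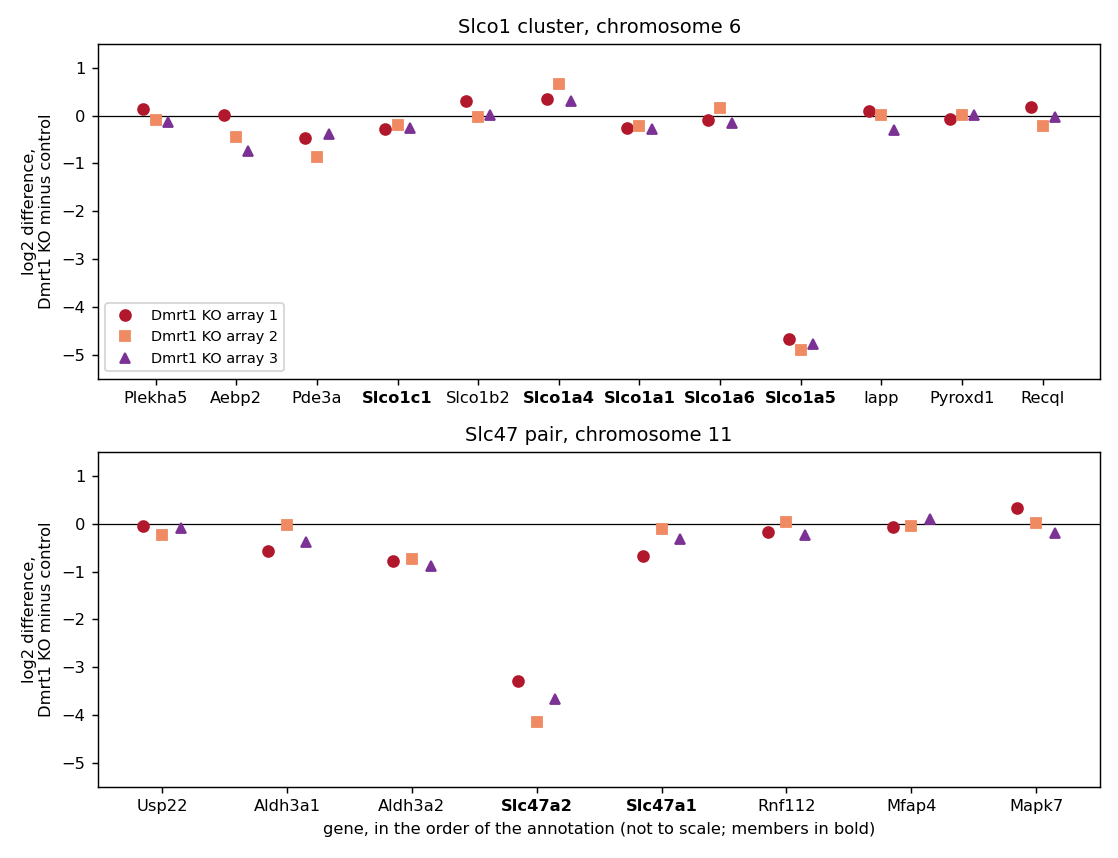
Log2 difference of each Dmrt1 KO array from the control (vertical axis) for genes in annotation order (horizontal axis, not to scale) around the Slco1 cluster of chromosome 6 and the Slc47 pair of chromosome 11, with members in bold. Slco1a5 and Slc47a2 stand at -4.90 to -4.68 and -4.15 to -3.29, and every other gene shown lies within 1 of the control on each array.

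Slc47a2 (NM_001033542), a MATE exporter of organic cations known in the mouse mainly from the testis, was the other member far below the control. Its intensity was 914, 503 and 703 on the KO arrays, against 8932 in the control. The log2 levels were 9.84, 8.97 and 9.46 on the KO arrays and 13.12 in the control. The KO arrays spread over 0.86, more than for any other member, and the nearest lay 3.29 below the control. The mean difference was -3.70 (SD 0.43, n = 3), a 13.0-fold lower intensity, and it ranked 12 from the lowest of all transcripts. On the KO arrays 36.9% to 48.2% of all transcripts were dimmer, and with 50 added to every intensity the difference was -3.61.

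Slc47a1 (NM_026183), the MATE of kidney and liver cells that exports metformin and other cations, differed little. Its intensity was 2328, 3424 and 2947 on the KO arrays and 3690 in the control. All 3 KO arrays lay below the control, the nearest by 0.11 on the log2 scale, less than the 0.56 between the KO arrays. The difference was -0.37 (SD 0.28, n = 3), against -3.70 for Slc47a2, the gene next to it on chromosome 11, and it was -0.22 without KO array 1. KO array 1 was the lowest for Slc47a1 and the highest of the KO arrays for Slc47a2, and KO array 2 the reverse.

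Of the measured named genes around the pair, with the same kinds of symbol skipped, Usp22, Aldh3a1 and Aldh3a2 came before Slc47a2. Rnf112, Mfap4 and Mapk7 came after Slc47a1. Aldh3a2, a dehydrogenase of fatty aldehydes, was at -0.80 ± 0.25 (SE), short of the threshold of limma's test (adjusted p = 0.412). All 3 KO arrays lay below the control for it, as for 24.1% of all transcripts. Aldh3a1 was at -0.32 ± 0.29 and Usp22, a ubiquitin protease, at -0.13 ± 0.26. Rnf112 was at -0.12 ± 0.26, Mfap4, a microfibril protein, at -0.0001 ± 0.25 and Mapk7, a kinase, at 0.05 ± 0.29 (SE). The sign of Mfap4 and of Mapk7 also turned without 1 of the KO arrays. Over both stretches limma called 0 of 13 neighbours, with 1 at an unadjusted p under 0.05.

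The 250 bases before the annotated start of Slc47a2 (RefSeq, GRCm38.p6, chr11:61342861-61343110, minus strand) are shown as the region next to Slc47a1, with no capitals because none of the letters searched occurred.
Slc47a2: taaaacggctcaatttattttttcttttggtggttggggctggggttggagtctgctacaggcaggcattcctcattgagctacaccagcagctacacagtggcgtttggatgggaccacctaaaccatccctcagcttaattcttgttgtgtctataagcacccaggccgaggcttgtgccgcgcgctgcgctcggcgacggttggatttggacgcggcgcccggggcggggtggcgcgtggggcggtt

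Windows of 300 bases, from 250 before to 50 after a start, were found for 8 of the 10 members, 11 windows in all. Slco3a1 and Slc47a1 had none in the table. The letters ACANTGT, the core of the DMRT1 binding motif, occurred on either strand in 0 of these 11 windows and in 7.54% of all 32851 windows. AGATAA, which GATA factors bind, occurred in 0 of the 11 and 11.2% of all. AACAAT, a SOX motif, occurred once, at -145 from the Slco1a4 start, and in 10.7% of all. AAGGTCA, an NR5A receptor motif, occurred once, at -25 from the Slco1a1 start, and in 4.72% of all. TATAAA occurred in both Slco1a5 windows, at -97 from the outer and -196 from the inner start, in those of Slco1a1, Slco1c1 and Slco2a1, and in 13.6% of all windows. These motifs do not overlap one another here, and a window without the letters says nothing about binding elsewhere.

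Slco3a1, a broadly made OATP that carries prostaglandins and thyroxine, gave a different picture for each of its transcripts. NM_023908 had intensities of 1971, 2248 and 2692 on the KO arrays, against 4101 in the control. All 3 KO arrays lay at least 0.61 below the control on the log2 scale, with 0.45 between them, and the difference was -0.84 (SD 0.23, n = 3), a 1.79-fold lower intensity. NM_001038643 had 5186, 6101 and 5751 on the KO arrays and 5467 in the control, which lay among them. Its difference was 0.05 (SD 0.12, n = 3), and -0.0016 without KO array 2.

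The ratio between the 2 Slco3a1 transcripts was higher on every KO array than in the control. The log2 level of NM_001038643 minus that of NM_023908 was 1.40, 1.44 and 1.10 on the KO arrays, against 0.42 in the control. The mean was 1.31 ± 0.19 (SD, n = 3) on the KO arrays, 0.90 above the control, so the 2 transcripts of this gene differed unequally. Which of the probes are shared between the transcripts is not known here.

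Slco2a1 (NM_033314), the prostaglandin transporter that clears prostaglandins from the cell surface, varied more among the KO arrays than it differed from the control. Its intensity was 1662, 1481 and 970 on the KO arrays and 1249 in the control, with KO arrays 1 and 2 above and KO array 3 below. The difference of 0.10 (SD 0.41, n = 3) turned to -0.06 without KO array 1. Slco2b1 (NM_175316), a carrier of sulfated steroids, was dim at 96.5, 109 and 109 on the KO arrays and 92.2 in the control. All KO arrays were above the control, the nearest by 0.07 on the log2 scale, and the difference was 0.18 (SD 0.10, n = 3).

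**Figure D3:**
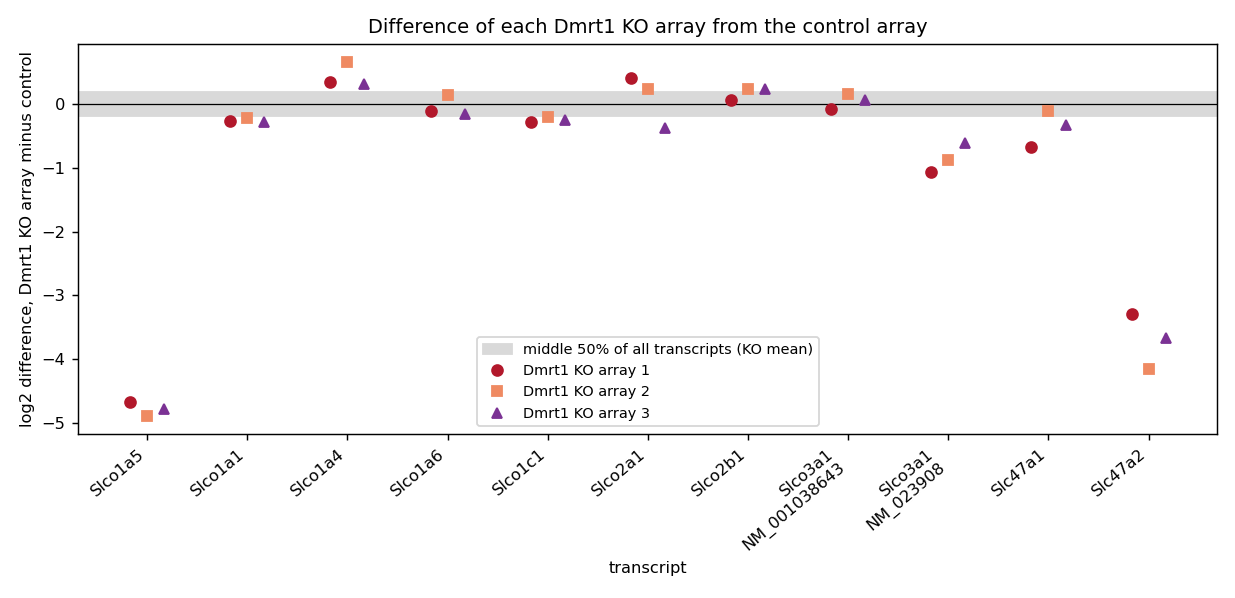
Log2 difference of each Dmrt1 KO array from the control array (vertical axis) for the 11 transcripts (horizontal axis), with a symbol for each KO array and a grey band for the middle 50% of all transcripts by KO mean (-0.19 to 0.20). Slco1a5 and Slc47a2 lie below -3 on all 3 arrays, NM_023908 of Slco3a1 lies between -1.06 and -0.61, and the rest stay within 0.67 of the control.

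By array, the median difference of the 11 transcripts from the control was -0.26, -0.11 and -0.27 for KO arrays 1, 2 and 3. KO array 2 was the lowest of the KO arrays for both Slco1a5 and Slc47a2, and the highest for Slco1a4, Slco1a1, Slco1a6, Slco1c1, Slc47a1 and NM_001038643 of Slco3a1. The differences of Slco1a5 and Slc47a2 were -4.79 and -3.67 on KO array 3, -4.90 and -4.15 on KO array 2, and -4.68 and -3.29 on KO array 1.

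Of the named genes outside the transporter set, Rnf138rt1, Gja6, Frzb, Vsig1 and Nxf3 had profiles over the 4 arrays most like that of Slco1a5. RIKEN, predicted and accession-like symbols were skipped, and the brightest transcript stood for a gene. Likeness was the Euclidean distance between log2 profiles centred on each gene's own mean, and it was 0.43 for Rnf138rt1, 0.58 for Gja6, a connexin, 0.87 for Frzb, a secreted Wnt antagonist, 1.12 for Vsig1 and 1.14 for Nxf3. For Slc47a2 they were Cdo1, a cysteine dioxygenase, at 0.53, Gja6 at 0.54 and Nxf3 at 0.58. Next came Stra6, the receptor for retinol-binding protein, at 0.59 and Tspan17, a tetraspanin, at 0.68. Slco1a5 and Slc47a2 were 1.04 apart, closer than Slco1a5 was to Vsig1 or Nxf3. Over 4 arrays with 1 control, such a distance reflects mainly the size of the difference between KO and control, and Rnf138rt1 had a difference of -4.54, Gja6 of -4.21 and Cdo1 of -3.40.

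Genes that work with these carriers were read from 9 lists drawn up from textbook knowledge with 134 genes, of which 125 were measured. None passed limma's test in either direction, where 0.499% of all transcripts passed as lower and 0.156% as higher. An unadjusted p under 0.05 was reached by 10 of them (8.0%), against 6.42% of all transcripts. Their median difference was 0.07. All 3 KO arrays lay below the control for 16.8% of them, against 24.1% of all transcripts, and above it for 32.0%, against 25.6%.

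Of the other OATPs, 0 of 5 measured genes passed (median 0.12), and the nearest to passing were Slco4c1, a carrier of kidney, at -0.22 ± 0.26 and Slco6c1, from a subfamily known from the testis, at 0.18 ± 0.25 (SE). In the SLC22 family of organic anion and cation transporters 0 of 22 passed (median 0.08), and Slc22a4, the ergothioneine transporter, was at -1.08 ± 0.29 (SE; limma, adjusted p = 0.257). Its intensity was 465, 342 and 501 on the KO arrays and 907 in the control. All 3 KO arrays thus lay below the control, as for 24.1% of all transcripts. Slc22a14, made in sperm-forming cells, was at 0.68 ± 0.28 (SE).

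Among the ABC drug exporters 0 of 13 passed (median 0.16), and Abcb4, the phosphatidylcholine floppase of bile canaliculi, was at 1.17 ± 0.26 (SE; limma, adjusted p = 0.112). Its intensity was 206, 250 and 233 on the KO arrays and 101 in the control. Abcb1b, a P-glycoprotein, was at 0.42 ± 0.28. No carrier of bile acids and sulfated steroids passed (0 of 9, median -0.13), with Slc51a at -0.32 ± 0.29 and Slc10a1, the hepatic bile acid carrier, at -0.37 ± 0.35 (SE). Without 1 KO array at a time, Slc10a1 ranged from -0.64 to -0.21. The nucleoside and monoamine carriers had 0 of 7 past the test (median 0.12), with Slc29a3 at 0.71 ± 0.27 and Slc29a2, an equilibrative nucleoside transporter, at 0.63 ± 0.25 (SE).

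For the substrates of the OATPs, 0 of 13 genes of thyroid hormone handling passed (median 0.14), and Crym, a thyroid hormone binding protein, was at -0.50 ± 0.27 and Slc7a8, an amino acid carrier that also takes thyroid hormone, at 0.47 ± 0.28 (SE). In the prostaglandin pathway 0 of 20 passed (median 0.01), with Ptges, a prostaglandin E synthase, at 0.92 ± 0.28 (SE; limma, adjusted p = 0.370) and Ptgds, a prostaglandin D synthase, at 0.82 ± 0.45, or 0.43 without KO array 3. Of the genes of sulfation and glucuronidation 0 of 21 passed (median 0.10), with Sult5a1, a sulfotransferase, at 0.62 ± 0.27 and Ugt2b5, a glucuronosyltransferase, at 0.61 ± 0.26 (SE).

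Of the nuclear receptors and partners that sense bile acids and foreign compounds, 0 of 15 passed (median 0.18). Nr0b2, the small heterodimer partner that represses bile acid synthesis, had intensities of 1277, 1273 and 1117 on the KO arrays and 552 in the control. It was at 1.14 ± 0.26 (SE, limma adjusted p = 0.117), with all 3 KO arrays above the control, as for 25.6% of all transcripts.

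**Figure D4:**
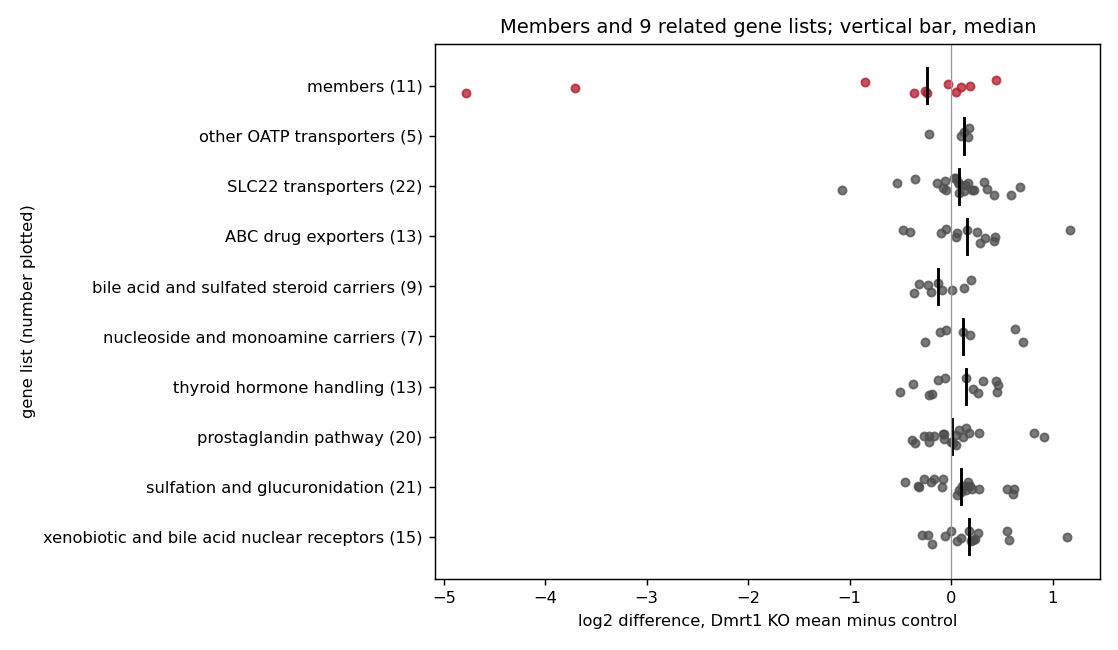
Log2 difference, Dmrt1 KO mean minus control (horizontal axis), for the 11 member transcripts and for the measured genes of 9 related lists (vertical axis), a point per transcript or gene and a bar at each median. Slco1a5 at -4.79 and Slc47a2 at -3.70 stand apart on the left, and the 125 related genes lie between -1.08 and 1.17.

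Some Sertoli cell markers also differed. Of 20 measured markers 4 fell and 1 rose by limma, against 0.499% and 0.156% of all transcripts. The list was drawn up with earlier results of these data known, so nothing is read from its shares. The markers had a median difference of -0.15, and their summed intensity was 180533 to 183094 on the KO arrays and 266673 in the control. Those that fell were Cst9, a cystatin, at -2.89, Defb36, a beta-defensin, at -2.20, Cldn11, the claudin of the Sertoli barrier, at -1.72 and Gata1, a transcription factor, at -1.55. Krt18, a keratin, rose by 1.73, and the adjusted p of these 5 ran from 0.0111 to 0.0248 (limma). With 50 added to every intensity Cst9, at -2.87, and Defb36, at -2.19, no longer passed (limma, adjusted p = 0.0677 and 0.0604). All 3 KO arrays lay below the control for 10 of the 20 markers and above it for 5, against 24.1% and 25.6% of all transcripts. Of those short of the test, Fshr, the FSH receptor, was at -1.12 ± 0.32, Tsx at -0.98 ± 0.28, Clu, the clusterin gene, at -0.62 ± 0.25 and Ctsl, a cathepsin, at -0.57 ± 0.32 (SE), each with all 3 KO arrays below the control. Sox9 at -0.56 ± 0.28 and Amh at -0.05 ± 0.25 (SE) were also short of the test, again with all 3 KO arrays below the control. Wt1 at 0.42 ± 0.25, Gata4 at 0.51 ± 0.26, Inhba at 0.48 ± 0.27 and Dhh at 0.39 ± 0.25 (SE) were short of it too. For each of them all 3 KO arrays lay above the control. The part of Sertoli cell number or state in the transporter differences was not tested.

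The other marker lists had 0 genes past the test. Their median differences were 0.12 for germ cell, 0.25 for Leydig cell, 0.08 for endothelial, 0.41 for macrophage and 0.11 for epididymis and kidney tubule markers. All 3 KO arrays lay above the control for 6 of 16, 4 of 10, 3 of 12, 8 of 11 and 3 of 13 markers in that order. The share of all transcripts was 25.6%. The KO arrays all lay below the control for 2, 0, 0, 1 and 4 of the same markers, against 24.1% of all transcripts. These lists too were drawn up with earlier results known, so nothing is read from the shares. The summed intensity of 16 germ cell markers was 215364 to 245401 on the KO arrays and 216729 in the control, that of 10 Leydig cell markers 92160 to 141039 on the KO arrays and 97229 in the control, and that of 12 endothelial markers 38745 to 41895 on the KO arrays and 35689 in the control. It was 23094 to 27761 on the KO arrays and 18852 in the control for 11 macrophage markers. For 13 markers of epididymis and kidney tubule, where several of these transporters are well known, it was 4807 to 6384 on the KO arrays and 5100 in the control. An unadjusted p under 0.05 (limma) was reached by 1 germ cell, 1 Leydig cell, 0 endothelial, 2 macrophage and 0 epididymis or kidney genes. It was reached by 6.42% of all transcripts.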

How the data were processed

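RNA of postnatal day 9 testes was hybridised to one-colour NimbleGen arrays, 3 Dmrt1 KO and 1 control. The authors deposited 1 linear intensity per RefSeq transcript and array. These came from RMA, per the submitters' processing notes, which corrects background, quantile-normalises arrays and summarises probes, and so removes overall shifts. Its version and settings are not given in the sources used here. All values were above a floor of 1, and log2 was taken. Unversioned accessions were matched to RefSeq genes of GRCm38.p6 (17780 of 25631 transcripts, 69.4%).

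Genes outside the transporter set were tested by limma 3.58.1 (R 4.3.3, lmFit and eBayes, KO minus control, two-sided, Benjamini-Hochberg over 25631 transcripts, adjusted p under 0.05). With 2 residual degrees of freedom, the spread is that of the KO arrays. The brightest transcript stood for a gene of a list. The procedure was run on simulated data in which the control had the same spread as the KO arrays. That run therefore does not test the spread of the single control. Members, lists, naming rule and alternatives were chosen with earlier results of these data known. Named were the members, Dmrt1, the marker genes past the test, the related-list genes past it or else the 2 with the smallest p, 3 neighbours on each side and the 5 likest profiles; 1 gene so chosen is not reported here. Amh, Ddx4, Sox9, Wt1, Gata4, Inhba, Dhh, Fshr, Tsx, Clu and Ctsl fall outside this rule and were added, after their values were seen, as known markers.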

Additional observations from a re-analysis of the deposited data

How the results depend on the processing

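The single control array enters every setting, so none of them varies it, and p-values assume that it varies like the KO arrays. No paired analysis was possible because only 1 control array exists here and no label pairs it with a KO array. Leaving out each KO array, quantile normalisation again and median centring kept the direction of every member transcript, with 3 exceptions near 0. Without one KO array at a time, the difference ranged from -0.12 to 0.028 for Slco1a6, from -0.059 to 0.33 for Slco2a1 and from -0.0016 to 0.12 for NM_001038643 of Slco3a1. Slco1a5 ranged from -4.84 to -4.73 and Slc47a2 from -3.91 to -3.48. With 50 added to each intensity, Slco1a5 was at -3.84, Slco1a1 at -0.09, Slco1c1 at -0.16 and the median of the members at -0.093; adding a constant shrinks differences of dim transcripts by construction. Removing the dimmest 25% of transcripts left 6 of the 11, without Slco1a5, Slco1a1, Slco1a6, Slco1c1 and Slco2b1. The related lists had 0 calls under every setting run. Over all transcripts limma called 84 lower and 15 higher with 50 added, against 128 and 40 as deposited. The higher calls numbered 69 with an intensity trend in the variance prior and 58 to 62 without one KO array at a time; the cause was not tested. Cst9 and Defb36 no longer passed with 50 added (differences -2.87 and -2.19, adjusted p = 0.0677 and 0.0604), where their ranges over the settings were 0.000783 to 0.0677 and 0.00174 to 0.0604.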
